A study of Homo sapiens with 12 samples.

Results

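The clustered protocadherins are a family of cell-surface adhesion proteins encoded side by side on the long arm of human chromosome 5, in an alpha, a beta and a gamma cluster. Members were taken as every protein-coding gene whose symbol begins PCDHA, PCDHB or PCDHG, with pseudogenes left out. There were 51 of them among the 36675 genes listed, 15 alpha, 15 beta and 21 gamma, and all 51 had a row in both count tables. GENCODE release 29 holds 53 such genes, and PCDHB16 and PCDHGB5 matched no row and were not analysed here. The family was picked out with the resistance contrasts of these data already known. Its values in those contrasts are therefore given as descriptions without p-values for single members.

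The libraries came from palbociclib-resistant A375 cells, parental A375 cells, palbociclib-resistant CHL1 cells and parental CHL1 cells, with 3 libraries in each of the 4 groups. A375 and CHL1 are established human melanoma lines, and palbociclib inhibits the cyclin-dependent kinases CDK4 and CDK6. Resistant cells had been exposed to rising palbociclib for 7 months (A375) or 3 months (CHL1), were kept in 4 µM palbociclib, and like the parental cells spent 72 h without drug before total RNA was extracted. Each derivative is a single selection from its line, so resistance, selection and time in culture cannot be told apart, and nothing in the labels says that replicate libraries came from separate cultures. P-values therefore measure the spread between these libraries, which may be technical. Total counts ran from 25398920 to 29812686 per library, and 3 counts in a library correspond to 0.0967 to 0.1216 CPM, counts scaled to the size of the library. The melanocyte-lineage factor SOX10 stood at 203 to 351 CPM in resistant A375, 353 to 489 CPM in parental A375 and 931 to 1158 CPM in CHL1, while the pigment enzyme TYR was at 0 in every A375 library and at 0.634 CPM or less in CHL1.

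Each alpha and gamma gene contributes 1 large variable exon with its own promoter, which encodes the extracellular cadherin repeats and the membrane span. That exon is spliced to constant exons shared by the whole cluster, whereas beta genes lack a shared constant region. The proteins bind identical partners on other cells, and in neurons each cell uses its own combination, which lets sister branches of one neuron recognise and avoid each other. The insulator protein CTCF and cohesin loop the variable promoters to distant enhancers, and DNA methylation silences promoters that are not used. In several tumour types the clusters are known to be methylated, and melanocytes arise from the neural crest, an embryonic tissue that also forms peripheral nerves.

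The promoters of some members are shown here as background on the sequence before their start. Windows of 100 bases ending just before the RefSeq start were read from RefSeq's GRCh38.p14 table for 8 members, chosen after their values were seen: genes with large, opposite or no differences in the 2 lines. All lie on the + strand, and capitals mark the letters CGCTG.
PCDHA6 (chr5:140827860-140827959): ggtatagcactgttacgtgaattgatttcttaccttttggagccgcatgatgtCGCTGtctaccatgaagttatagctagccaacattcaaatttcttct
PCDHB1 (chr5:141051274-141051373): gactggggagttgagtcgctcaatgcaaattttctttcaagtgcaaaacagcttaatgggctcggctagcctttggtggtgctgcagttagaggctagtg
PCDHB7 (chr5:141172544-141172643): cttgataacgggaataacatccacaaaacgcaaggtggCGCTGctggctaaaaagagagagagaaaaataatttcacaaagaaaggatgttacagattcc
PCDHB12 (chr5:141208619-141208718): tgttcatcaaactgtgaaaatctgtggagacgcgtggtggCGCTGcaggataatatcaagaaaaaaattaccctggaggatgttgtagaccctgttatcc
PCDHGA7 (chr5:141382642-141382741): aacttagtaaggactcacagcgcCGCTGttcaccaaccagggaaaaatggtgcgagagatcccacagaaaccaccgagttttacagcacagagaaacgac
PCDHGB4 (chr5:141387598-141387697): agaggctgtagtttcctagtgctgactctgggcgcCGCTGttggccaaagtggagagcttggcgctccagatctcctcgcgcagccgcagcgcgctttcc
PCDHGA10 (chr5:141412887-141412986): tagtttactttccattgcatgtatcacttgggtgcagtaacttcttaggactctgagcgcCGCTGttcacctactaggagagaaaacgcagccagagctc
PCDHGC3 (chr5:141475866-141475965): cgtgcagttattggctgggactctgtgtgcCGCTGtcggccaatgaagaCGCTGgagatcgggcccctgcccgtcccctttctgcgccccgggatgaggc

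CGCTG was chosen after short words had been counted in these same promoters, so its frequency among them is a description. It occurs on the gene's strand in the 250 bases before the start of 37 of the 45 members that have a RefSeq entry (82.2%), against 24.4% of all 27305 promoters. It starts between 100 and 30 bases before the start in 33 members (73.3%), against 9.3% of all promoters. The reverse complement CAGCG occurs in 5 members, against 25.4% of all promoters. By cluster the word is present in 8 of 13 alpha, 10 of 13 beta and 19 of 19 gamma promoters. The entries for PCDHA3, PCDHA13, PCDHB6, PCDHB11, PCDHGA12 and PCDHGC5 are missing. The surroundings of the word differ by cluster: the 11 letters ggtggCGCTGc of PCDHB7 and PCDHB12 occur in 9 members, all beta, and in 20 of all promoters. The 16 letters agcgcCGCTGttcacc occur in PCDHGA7, PCDHGA8 and PCDHGA10 and in no other promoter of the table. PCDHB1 has no CGCTG in its window.

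The members differed widely in level. PCDHGC3, a C-type gamma gene expressed beyond neurons, had the highest level per length in all 4 groups: 25 and 21.3 CPM per kilobase of gene-specific exon in resistant and parental A375, and 28.7 and 21.7 CPM per kilobase in resistant and parental CHL1. PCDHB2, PCDHB5, PCDHB6, PCDHB8 and PCDHA6 shared the next places between them, with PCDHB5 at 12.1 and 5.61 CPM per kilobase in resistant and parental A375 and at 23.9 and 19.1 CPM per kilobase in resistant and parental CHL1. At the other end PCDHB1, the first gene of the beta cluster, stood at 0.129 to 0.240 CPM in resistant A375 and at or under the floor of 3 counts in parental A375 (0.0376 to 0.111 CPM). It had 0 counts in all resistant CHL1 libraries, each of which allows up to the floor of 3 counts, and 1 count in all in the parental CHL1 libraries. Across the 51 genes the Spearman correlation of levels per kilobase between the lines was 0.728 for resistant and 0.701 for parental cells, as a description over genes that share libraries. At least 1 CPM on average was reached by 42 members in resistant A375, 35 in parental A375, 27 in resistant CHL1 and 25 in parental CHL1.

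**Figure D1:**
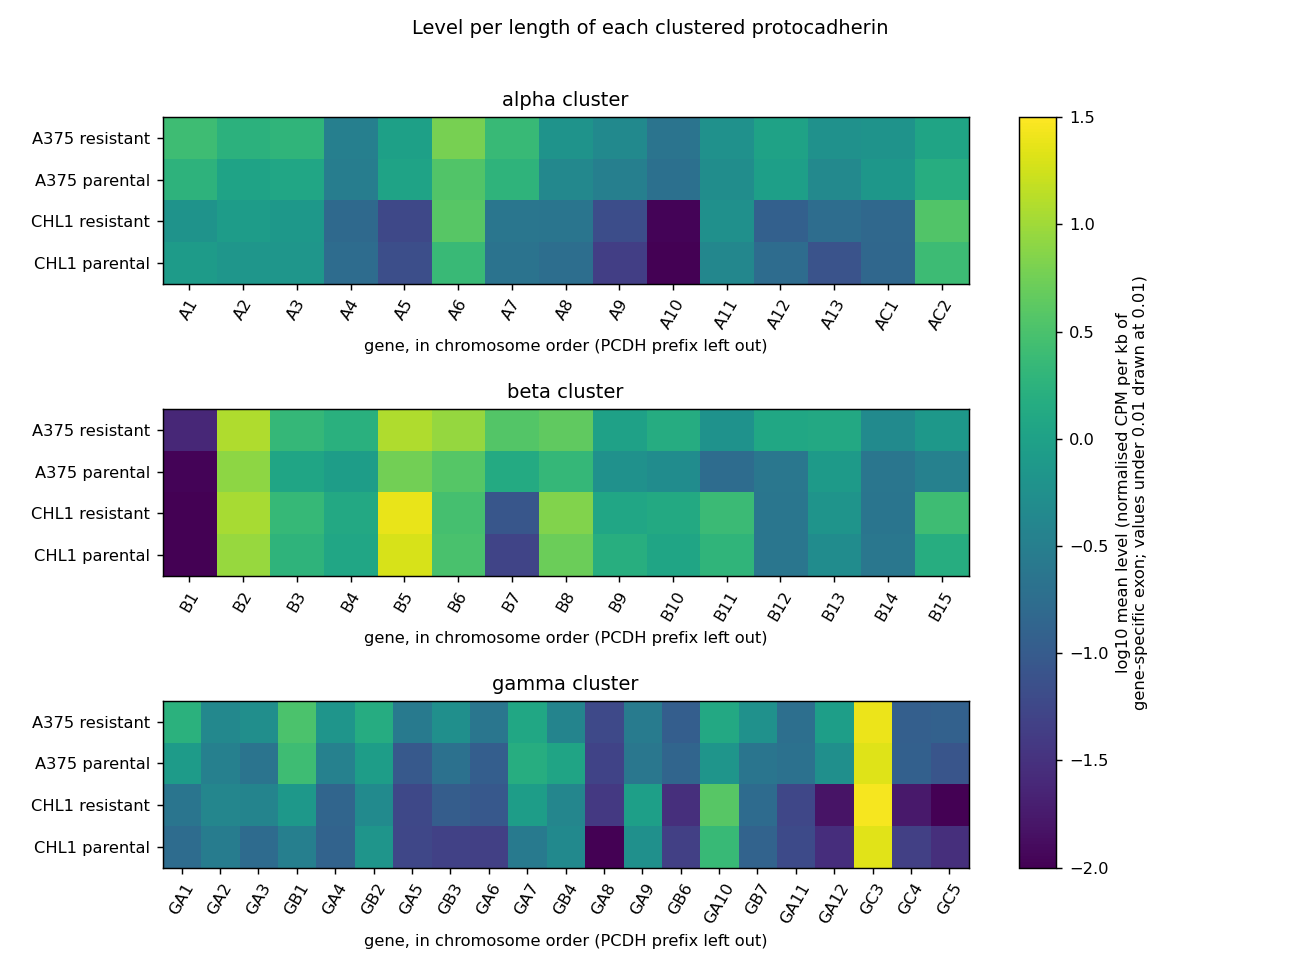
Mean level of each of the 51 genes in each group, as colour on a log10 scale of normalised CPM per kilobase of gene-specific exon, with genes in chromosome order and values under 0.01 drawn at 0.01. PCDHGC3 is the brightest column in every group, and PCDHB7 and most alpha genes are darker in both CHL1 rows than in both A375 rows.

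Summed over a cluster, the beta genes differed most between resistant and parental A375 cells. Their sum was 185, 161 and 165 CPM in resistant A375, against 94.98, 87.4 and 75.02 CPM in parental A375, a ratio of means of 1.99. In CHL1 the beta sum was 179, 184 and 178 CPM in resistant cells, against 144, 143 and 160 CPM in parental cells, a ratio of 1.21. No resistant library overlapped a parental one in either line. In bulk RNA such a difference can come from more cells using a gene or from more RNA per cell, and these cannot be told apart.

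The alpha sum was 72.0, 65.8 and 69.5 CPM in resistant A375, against 60.5, 51.0 and 48.0 CPM in parental A375, a ratio of 1.30. In CHL1 it was 37.3, 38.4 and 36.3 CPM in resistant cells, against 29.5, 26.6 and 28.4 CPM in parental cells, a ratio of 1.33. The alpha groups did not overlap in either line. The gamma sum averaged 125 ± 21.1 CPM in resistant A375 and 100.2 ± 16.4 CPM in parental A375 (SD, n = 3 each), and there the libraries overlapped. In CHL1 it averaged 126 ± 5.80 CPM in resistant cells and 91.2 ± 8.04 CPM in parental cells, without overlap.

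Most of the gamma sum is PCDHGC3, which made up 64.6% ± 2.87 of it in resistant A375, 69.2% ± 0.357 in parental A375, 74.1% ± 2.10 in resistant CHL1 and 77.5% ± 1.27 in parental CHL1 (SD, n = 3 each). Without it, in a sum chosen after the values were seen, the other 20 gamma genes gave 49.3, 38.8 and 44.2 CPM in resistant A375, against 37.2, 28.1 and 27.4 CPM in parental A375. The same 20 genes gave 35.6, 32.3 and 30.1 CPM in resistant CHL1, against 20.6, 18.7 and 22.3 CPM in parental CHL1. With PCDHGC3 left out the groups were separate in both lines, at ratios of 1.43 in A375 and 1.59 in CHL1.

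**Figure D2:**
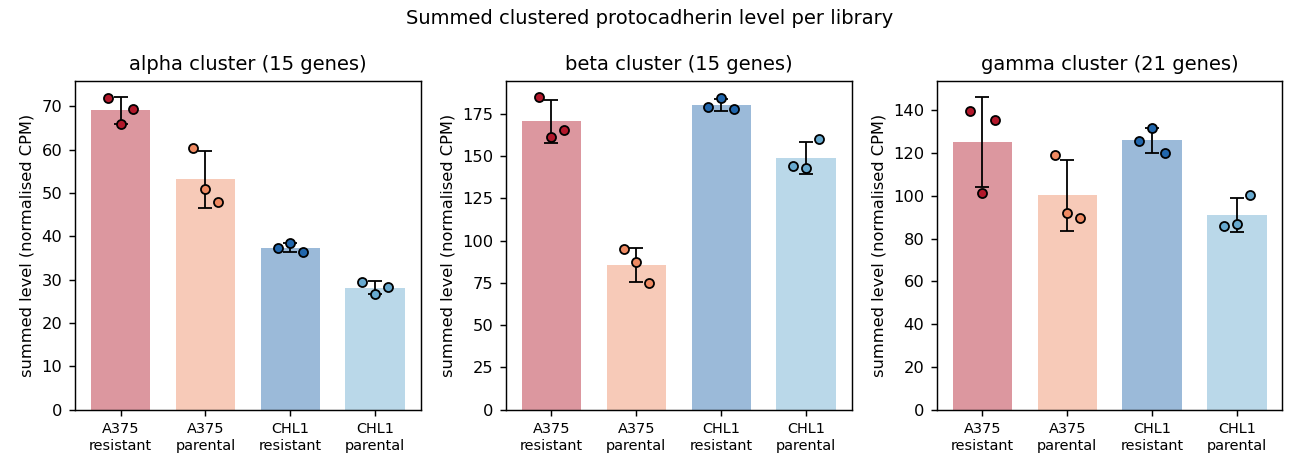
Summed level of each cluster in normalised CPM. Points are libraries, bars their means and error bars the SD (n = 3); the beta bars show the resistant A375 libraries at 161 to 185 CPM, against 75.02 to 94.98 CPM in parental A375, and only the gamma cluster in A375 has overlapping groups.

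Gene by gene, 47 members passed the low-count filter in A375, and 28 were called higher and 2 lower in resistant cells by edgeR's quasi-likelihood test (adjusted p below 0.05 over all genes). Over all 18086 genes tested, 13.4% were called higher and 14.8% lower, 28.3% in all. By cluster the calls were 14 of 14 beta genes higher, 10 of 18 gamma genes higher with 1 lower, and 4 of 15 alpha genes higher with 1 lower. The median log2 fold change was 1.04 for beta, 0.71 for gamma and 0.25 for alpha genes, beside -0.001 over all genes tested. In 29 members all resistant libraries lay above all parental ones and in 2 all lay below, where 23.3% and 19.7% of all genes did so. PCDHB1, PCDHGA8, PCDHGC4 and PCDHGC5 fell below the filter. Because the family was picked from this contrast, nothing is read from these counts beyond the description.

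In CHL1 36 members passed the filter, with 13 called higher and 1 lower, beside 9.11% higher and 12.1% lower (21.2% in all) of 17219 genes. These were 2 of 10 alpha, 5 of 13 beta and 6 of 13 gamma genes higher, and 1 beta gene, PCDHB9, lower. Their median log2 fold change was 0.32, beside 0 over all genes tested. In 16 members all resistant libraries lay above all parental ones and in 2 all lay below, against 17.8% and 19.2% of all genes. The 15 members below the filter in CHL1 include PCDHB7, PCDHA5 and PCDHGA12, which A375 cells expressed.

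**Figure D3:**
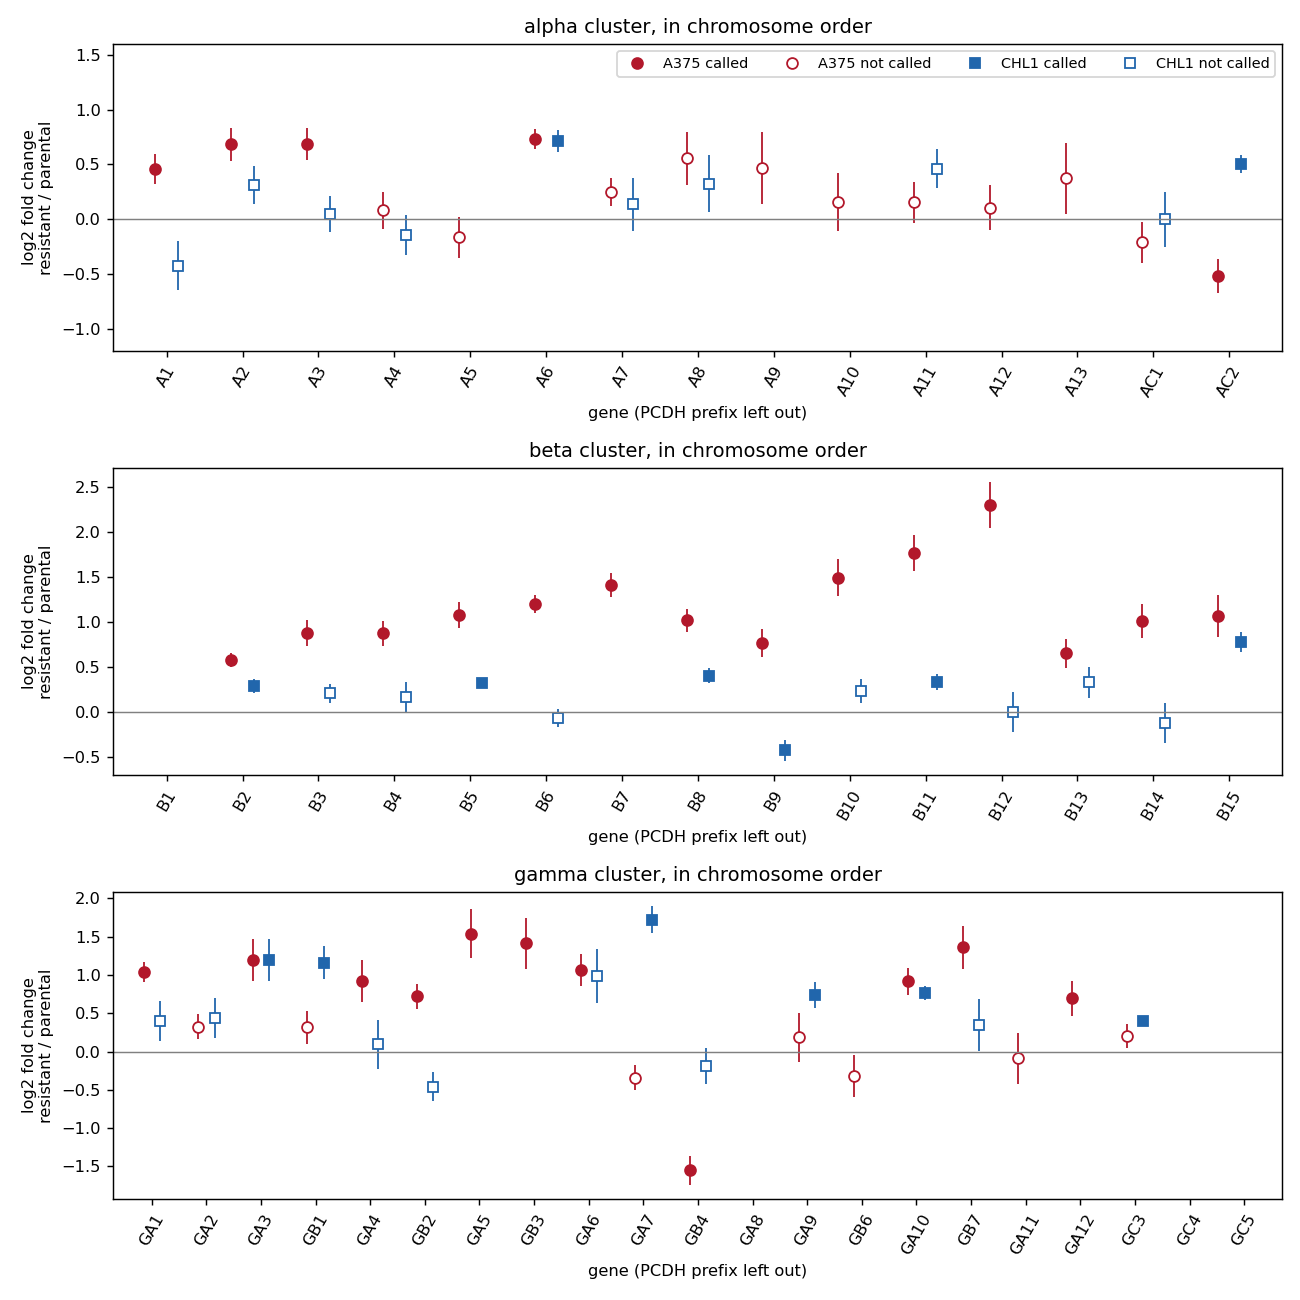
Log2 fold change of resistant over parental cells for each gene in chromosome order, with its SE as a bar; circles are A375, squares CHL1, filled symbols were called and open ones not, and a gap marks a gene below the filter. All 14 beta circles are filled and above 0, with PCDHB12 at 2.30, while PCDHGB4 at -1.55 is the lowest circle and PCDHGA7 at 1.72 the highest square.

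The 3 largest beta fold changes in A375 were those of the consecutive genes PCDHB10, PCDHB11 and PCDHB12. PCDHB12 had 5.42, 4.22 and 4.58 CPM in resistant A375, against 1.35, 0.887 and 0.586 CPM in parental A375, a log2 fold change of 2.30 ± 0.25 (SE). Its CHL1 levels were 0.811, 0.931 and 0.973 CPM in resistant cells, against 0.746, 1.04 and 0.951 CPM in parental cells. The A375 groups were far apart and the CHL1 groups lay on each other.

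PCDHB11 had 2.81, 2.26 and 2.25 CPM in resistant A375, against 0.789, 0.739 and 0.586 CPM in parental A375, a log2 fold change of 1.76 ± 0.20. In CHL1, where it was the more abundant, it had 10.2, 9.41 and 9.80 CPM in resistant cells, against 7.57, 7.45 and 8.44 CPM in parental cells (log2 fold change 0.33 ± 0.09). Both lines were higher in resistant cells without overlap, but the CHL1 call was lost without any of 4 of the 6 libraries. PCDHB7 had 14.5, 11.96 and 12.3 CPM in resistant A375, against 5.49, 4.47 and 4.36 CPM in parental A375, a log2 fold change of 1.41 ± 0.13. In CHL1 it did not exceed 0.324 CPM in any library. PCDHB10 had 5.73, 3.96 and 4.47 CPM in resistant A375, against 1.84, 1.85 and 1.25 CPM in parental A375, a log2 fold change of 1.49 ± 0.21. This gene is uncertain, since 33.5% of the 50-base words in its own exons also occur in another member, and so is PCDHB8 with 45.1%. The same limit applies in part to other members named below. Their shares were 22.4% for PCDHB2, 22.1% for PCDHB9, 23.6% for PCDHB13, 25.9% for PCDHA7 and 21.3% for PCDHGB4, beside a median of 6.95% over the members.

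PCDHB2 and PCDHB5 were the most abundant beta genes. PCDHB2 had 43.8, 41.6 and 43.7 CPM in resistant A375, against 29.3, 30.1 and 25.6 CPM in parental A375 (log2 fold change 0.58 ± 0.07). In CHL1 it had 37.0, 41.9 and 38.4 CPM in resistant cells, against 31.6, 28.7 and 35.8 CPM in parental cells (0.29 ± 0.08), where its call was lost when any of 4 of the 6 libraries was left out. PCDHB2 had the smallest fold change of the 14 beta genes tested in A375. PCDHB5 had 41.4, 32.7 and 31.1 CPM in resistant A375, against 19.5, 15.6 and 13.9 CPM in parental A375 (1.08 ± 0.14). In CHL1, where it was the most abundant beta gene, PCDHB5 had 68.8, 71.2 and 68.1 CPM in resistant cells, against 53.6, 54.5 and 58.8 CPM in parental cells (0.32 ± 0.05). The groups of PCDHB5 were separate in both lines.

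PCDHB6 had 28.2, 28.2 and 27.7 CPM in resistant A375, against 13.8, 11.6 and 10.6 CPM in parental A375, a log2 fold change of 1.20 ± 0.10. Its CHL1 libraries overlapped, at 10.3, 8.59 and 9.40 CPM in resistant cells and 9.70, 9.22 and 10.7 CPM in parental cells. PCDHB15, the last beta gene, was called higher in both lines. It had 2.75, 2.45 and 2.65 CPM in resistant A375, against 1.73, 0.887 and 1.06 CPM in parental A375 (1.07 ± 0.24). The CHL1 levels were 8.80, 9.56 and 9.72 CPM in resistant cells, against 4.62, 5.89 and 5.90 CPM in parental cells (0.78 ± 0.11), the largest absolute fold change of a beta gene in that line. PCDHB9 was called in opposite directions. It had 4.46, 3.77 and 4.11 CPM in resistant A375, against 2.33, 2.73 and 2.05 CPM in parental A375 (0.77 ± 0.16). In CHL1 it had 5.47, 4.33 and 4.65 CPM in resistant cells, against 6.89, 5.89 and 6.58 CPM in parental cells (-0.43 ± 0.12), a call that was lost without any of 4 of the 6 libraries. The other beta genes tested, PCDHB3, PCDHB4, PCDHB8, PCDHB13 and PCDHB14, had log2 fold changes from 0.65 to 1.02 in A375 and from -0.13 to 0.40 in CHL1, and the A375 call of PCDHB13 was lost without resistant library 1.

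Among the alpha genes PCDHA6 stood out in both lines. It had 21.3, 18.5 and 19.6 CPM in resistant A375, against 12.2, 11.8 and 11.1 CPM in parental A375, a log2 fold change of 0.73 ± 0.09. In CHL1 it had 11.9, 14.0 and 12.3 CPM in resistant cells, against 7.89, 6.93 and 8.52 CPM in parental cells, a log2 fold change of 0.71 ± 0.10. It accounted for 28.6% ± 0.883 of the alpha sum in resistant A375 against 22.2% ± 1.71 in parental A375, and for 34.1% ± 2.27 in resistant CHL1 against 27.6% ± 2.12 in parental CHL1 (SD, n = 3 each). Of the 50-base words in its own exons 25.4% also occur in another member. PCDHA1, the first alpha gene, had 6.42, 5.93 and 5.89 CPM in resistant A375, against 4.32, 4.95 and 3.73 CPM in parental A375 (0.46 ± 0.14). Its call was lost without any of 5 of the 6 A375 libraries.

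PCDHA1 had 1.38, 1.72 and 1.33 CPM in resistant CHL1, against 2.45, 2.11 and 1.35 CPM in parental CHL1, and was not called there. PCDHA2 and PCDHA3 were called higher in A375, with log2 fold changes of 0.68 ± 0.15 and 0.69 ± 0.15, and not in CHL1. From PCDHA4 to PCDHA13 the genes other than PCDHA6 were called in neither line, with log2 fold changes from -0.16 to 0.56 in A375. So all alpha genes called higher in A375 were among the first 6 of the 15. Across the 15 genes the Spearman correlation of fold change with position was -0.55 in A375, and it was 0.49 over 10 genes in CHL1, as a description over neighbouring genes that share libraries and constant exons.

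The C-type genes lie at the far ends of the alpha and gamma clusters and, unlike the others, are used by most neurons without a random choice. PCDHAC2, needed in mice for the spacing of serotonin-neuron axons, had 3.74, 2.96 and 3.78 CPM in resistant A375, against 5.41, 4.32 and 5.02 CPM in parental A375 (-0.52 ± 0.15). That call was lost without any of 5 of the 6 libraries. Its level in CHL1 was 11.5, 11.3 and 11.3 CPM in resistant cells, against 8.49, 7.71 and 7.80 CPM in parental cells (0.51 ± 0.08). The groups were separate in both lines and lay in opposite orders. PCDHAC1 overlapped in both lines, at 2.19 to 3.09 CPM in resistant A375 and 2.55 to 3.42 CPM in parental A375, and at 0.540 to 0.730 CPM in resistant CHL1 and 0.556 to 0.640 CPM in parental CHL1.

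PCDHGC3 had 90.3, 62.4 and 91.1 CPM in resistant A375, against 81.9, 63.7 and 62.2 CPM in parental A375, so the libraries overlapped (0.20 ± 0.15, not called). The CHL1 libraries had 90.1, 99.6 and 90.2 CPM in resistant cells, against 65.5, 68.3 and 78.1 CPM in parental cells (0.40 ± 0.07), without overlap. PCDHGC4, needed for neuron survival in mice, did not exceed 0.488 CPM in any A375 library or 0.238 CPM in any CHL1 library. PCDHGC5, the last gene of the gamma cluster, did not exceed 0.412 CPM in A375 or 0.142 CPM in CHL1. Neither passed the filter in either line, so of the 5 C-type genes 3 were tested.

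The variable gamma genes moved unequally. PCDHGB4 had the largest decrease of the members tested: it had 0.961, 0.870 and 0.982 CPM in resistant A375, against 3.16, 2.62 and 2.34 CPM in parental A375, a log2 fold change of -1.55 ± 0.19. In CHL1 it overlapped, at 1.22, 0.966 and 0.756 CPM in resistant cells and 1.03, 0.963 and 1.35 CPM in parental cells. On its far side lies PCDHGA8, which was below the filter. PCDHGA7, the gene just before it, had 4.43, 3.25 and 4.11 CPM in resistant A375, against 5.64, 4.32 and 4.69 CPM in parental A375, and was not called (-0.34 ± 0.16).

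In CHL1 PCDHGA7 gave the largest fold change of the 36 members tested, with 2.88, 2.79 and 3.13 CPM in resistant cells, against 0.711, 0.889 and 1.07 CPM in parental cells (1.72 ± 0.18). The groups were separate there. PCDHGA8, below the filter, had 0.162, 0.143 and 0.180 CPM in resistant CHL1, against 0, 0 and 0.0396 CPM in parental CHL1. PCDHGA10, whose promoter holds the same 16 letters as that of PCDHGA7, was called higher in both lines. It had 6.59, 4.995 and 5.89 CPM in resistant A375, against 3.64, 2.37 and 3.08 CPM in parental A375 (0.92 ± 0.18). In CHL1 it had 18.7, 17.2 and 16.2 CPM in resistant cells, against 10.2, 9.34 and 11.1 CPM in parental cells (0.76 ± 0.09).

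PCDHGA5 and PCDHGB3 had some of the largest gamma fold changes in A375, at low levels. PCDHGA5 had 1.20, 0.773 and 1.02 CPM in resistant A375, against 0.488, 0.259 and 0.256 CPM in parental A375 (1.54 ± 0.32). PCDHGB3 had 1.51, 1.35 and 1.38 CPM in resistant A375, against 0.789, 0.554 and 0.220 CPM in parental A375 (1.41 ± 0.34). Neither exceeded 0.324 CPM in a CHL1 library. PCDHGB7 followed with 1.78, 1.42 and 1.78 CPM in resistant A375, against 0.939, 0.480 and 0.476 CPM in parental A375 (1.36 ± 0.28).

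PCDHGA1, the first gamma gene, had 7.38, 6.90 and 6.98 CPM in resistant A375, against 3.87, 3.21 and 3.04 CPM in parental A375 (1.04 ± 0.13). In CHL1 it had 1.22, 0.859 and 0.720 CPM in resistant cells, against 0.746, 0.593 and 0.752 CPM in parental cells, and was not called. PCDHGA3 was called in both lines at nearly the same size, 1.20 ± 0.27 in A375 and 1.19 ± 0.27 in CHL1. PCDHGB1 had 8.06, 5.41 and 6.44 CPM in resistant A375 and 6.88, 4.77 and 4.06 CPM in parental A375, which overlap. In CHL1 PCDHGB1 had 1.82, 1.32 and 1.33 CPM in resistant cells, against 0.675, 0.704 and 0.594 CPM in parental cells (1.16 ± 0.22). The A375 calls of PCDHGA4 and PCDHGA12 were each lost without any of 4 of the 6 libraries.

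**Figure D4:**
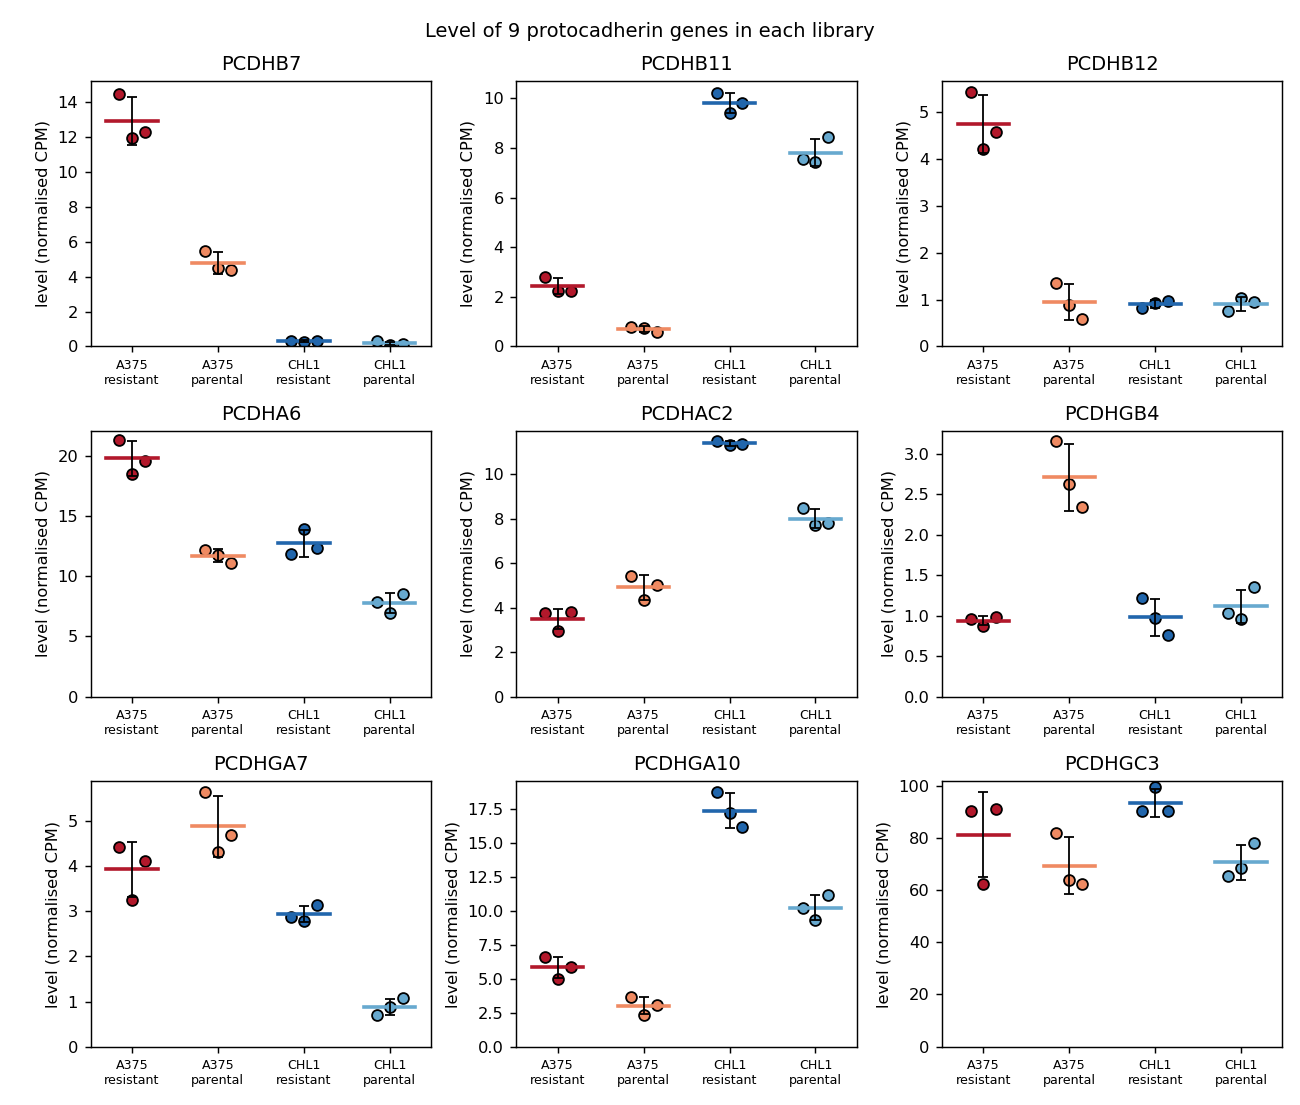
Level in normalised CPM of 9 genes in each library, chosen after their values were seen; points are libraries, horizontal lines means and error bars the SD (n = 3). PCDHB12 stands at 4.22 to 5.42 CPM in resistant A375 and at 1.35 CPM or less in the other groups, PCDHGB4 is lower in resistant A375 (0.870 to 0.982 CPM, against 2.34 to 3.16 CPM in parental A375), and PCDHGA7 is higher in resistant CHL1 (2.79 to 3.13 CPM, against 0.711 to 1.07 CPM in parental CHL1).

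Side by side, 36 members passed the filter in both lines. Of these, 8 were called higher in both (PCDHA6, PCDHB2, PCDHB5, PCDHB8, PCDHB11, PCDHB15, PCDHGA3 and PCDHGA10), none was called lower in both, and PCDHB9 and PCDHAC2 were called in opposite directions. A further 15 were called higher in A375 without a call in CHL1, and 4 the reverse (PCDHGB1, PCDHGA7, PCDHGA9 and PCDHGC3). Over all genes tested in single lines, 13.4% were called higher and 14.8% lower in A375, and 9.11% higher and 12.1% lower in CHL1. The share of all genes called in both lines was not computed, so the counts over both lines are a description only. Across the 36 genes the Spearman correlation of the fold changes of the lines was 0.006, as a description. The size of the response was compared between lines by an interaction contrast over the 12 libraries together, which gave a log2 fold change higher in A375 than in CHL1 for 13 of 47 members and lower for 3. Over all 19545 genes tested 12.6% and 10.5% were so called, 23.1% in all. The contrast is built from the resistance contrasts, so its calls are a description too. The 13 comprised 10 of the 14 beta genes, PCDHA1, PCDHA3 and PCDHGB2, and the 3 were PCDHAC2, PCDHGA7 and PCDHGB4. The largest such differences on the log2 scale were 2.33 ± 0.36 for PCDHB12 and -2.04 ± 0.25 for PCDHGA7.

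The lines also differed from each other, in contrasts that played no part in picking the family but use the same libraries. Genes named for their resistance fold change are therefore given here without p-values. Among resistant cells 31 of 47 members were higher in A375 than in CHL1 and 7 lower, beside 39.6% and 37.4% of all 19545 genes tested (76.9% in all). Among parental cells 27 were higher in A375 and 10 lower, beside 38.8% and 37.1% of all genes (75.9% in all). The groups did not overlap for 30 members higher and 7 lower among resistant cells, beside 41.0% and 38.6% of all genes, and for 27 higher and 11 lower among parental cells, beside 39.6% and 37.9%. The lines were counted in separate tables, so line and table cannot be told apart. In the fits of single lines 47 members passed the filter in A375 and 36 in CHL1. Members below it in CHL1 alone, among them PCDHA5, PCDHA10 and PCDHB7, entered here only through A375, where they are high. The direction of those members followed from the filter, so these counts are given as a description. Alpha genes were mostly the higher ones in A375: 13 of 15 were called higher and 1 lower in resistant as well as parental cells. Their medians were 1.71 and 1.19 on the log2 scale, beside 0.046 and 0.035 over all genes. Of the 15 alpha genes, 10 had passed the filter in CHL1. The beta genes were split, with 6 of 14 higher and 4 lower among resistant cells and 3 higher and 7 lower among parental cells.

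PCDHB7 gave the largest difference of a beta gene, with a log2 difference of A375 over CHL1 of 5.41 ± 0.20 in resistant cells and 4.64 ± 0.24 in parental cells. The parental CHL1 libraries held 8, 3 and 4 counts of PCDHB7, near the floor, so the size of its difference is uncertain. PCDHA10 had 2.33, 1.77 and 2.18 CPM in resistant A375, against 0.162, 0.0358 and 0.108 CPM in resistant CHL1, and 2.59, 1.7 and 1.25 CPM in parental A375, against 0.0711, 0.0370 and 0.0792 CPM in parental CHL1. The parental CHL1 libraries held under 3 counts each, so no fold is given. PCDHA5 and PCDHA7 were likewise at or below 0.811 CPM in all CHL1 libraries and between 2.89 and 6.88 CPM in all A375 libraries. These 4 genes separate the lines without overlap, but of them only PCDHA7 passed the filter in CHL1.

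PCDHB11 ran the other way, with a log2 difference of A375 over CHL1 of -2.0035 ± 0.12 in resistant cells and -3.46 ± 0.15 in parental cells. PCDHB5 was lower in A375 by a log2 difference of -0.98 ± 0.11 in resistant cells (edgeR adjusted p = 8.1e-07) and -1.77 ± 0.12 in parental cells (edgeR adjusted p = 1.8e-09). PCDHGA10 and PCDHAC2 were lower in A375 too, at -1.57 ± 0.13 and -1.71 ± 0.12 in resistant cells and -1.75 ± 0.15 and -0.70 ± 0.11 in parental cells. PCDHB12 gave 2.38 ± 0.22 between resistant lines and 0.05 ± 0.27 between parental lines (a difference whose sign changed without parental A375 library 1 or parental CHL1 library 1). PCDHGB4 gave -0.06 ± 0.23 between resistant lines and 1.28 ± 0.19 between parental lines, the value between resistant lines being one whose sign changed without resistant CHL1 library 1. For PCDHGC3 the lines differed by -0.20 ± 0.13 in resistant cells (edgeR adjusted p = 0.18) and -0.03 ± 0.13 in parental cells (edgeR adjusted p = 0.86), and the sign in parental cells changed without any of 3 libraries.

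Genes around the clusters were taken from a list of 25, of which 22 were tested in each line. TAF7, a subunit of the general transcription factor TFIID whose gene lies between the beta and gamma clusters, was higher in both lines, with 218, 192 and 211 CPM in resistant A375, against 158, 146 and 161 CPM in parental A375 (log2 fold change 0.39 ± 0.06, edgeR adjusted p = 0.0017). In CHL1 it averaged 102 ± 6.35 CPM in resistant cells and 89.1 ± 4.67 CPM in parental cells (0.20 ± 0.06, edgeR adjusted p = 0.028; SD, n = 3 each). The other 7 neighbours called in A375 were lower, beside 14.8% of all genes tested, and all lie beyond the gamma cluster, from DIAPH1 to PCDH12. ARAP3 fell by 0.46 ± 0.08 on the log2 scale (edgeR adjusted p = 0.0028) and PCDH1 by 0.76 ± 0.18 (edgeR adjusted p = 0.013). None of the neighbours before the alpha cluster was called in either line, and the only other neighbour called in CHL1 was PCDH12, which was lower. The median over the neighbours was -0.07 in A375 and 0.02 in CHL1.

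Of 24 listed regulators of promoter choice, 2 rose and 6 fell in resistant A375, and 2 fell in resistant CHL1. Over all genes tested 13.4% rose and 14.8% fell in A375, and 9.11% rose and 12.1% fell in CHL1, so neither these counts nor those of the partners and other cadherins below are read as particular to the lists. ZNF274, a zinc finger protein that recruits the histone methyltransferase SETDB1, had 53.0, 51.9 and 55.1 CPM in resistant A375, against 24.0, 26.6 and 27.9 CPM in parental A375 (log2 fold change 1.00 ± 0.07, edgeR adjusted p = 2.8e-05). The cohesin subunit SMC3 was lower in resistant A375, with a log2 fold change of -0.67 ± 0.05 (edgeR adjusted p = 4.1e-05) and so was the cohesin release factor WAPL, with -0.56 ± 0.05 (edgeR adjusted p = 9.3e-05). STAG2, another cohesin subunit, was higher (0.56 ± 0.06). CTCF itself was not called in either line, at 112 to 118 CPM in resistant A375 and 101 to 110 CPM in parental A375. In CHL1 the 2 called were STAG1 (-0.17 ± 0.06, edgeR adjusted p = 0.048) and PDS5B (-0.18 ± 0.05, edgeR adjusted p = 0.035), both cohesin-associated and both also lower in resistant A375.

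Of 17 tested partners of the proteins, 3 rose in resistant A375 and none fell, and 4 rose and 1 fell in resistant CHL1. CYFIP2, a subunit of the WAVE complex that drives actin branching, had 56.8, 65.4 and 56.4 CPM in resistant A375, against 19.7, 18.6 and 16.4 CPM in parental A375 (1.68 ± 0.09, edgeR adjusted p = 8.7e-06). In CHL1 it was lower in resistant cells, at 347, 335 and 341 CPM against 427, 421 and 469 CPM in parental cells (-0.37 ± 0.05, edgeR adjusted p = 0.00028). Among protocadherins outside the clusters, 3 rose and 3 fell of 9 tested in A375, and 5 rose and 2 fell of 10 tested in CHL1. PCDH1 and PCDH12 belong to this list and to the neighbours above, so their calls enter both counts. PCDH10 was called in opposite directions, with 11.1, 9.44 and 10.7 CPM in resistant A375, against 20.9, 17.6 and 15.3 CPM in parental A375 (-0.81 ± 0.13, edgeR adjusted p = 0.0016). In CHL1 PCDH10 had 30, 33.5 and 33.6 CPM in resistant cells, against 11.0, 9.71 and 10.2 CPM in parental cells (1.65 ± 0.08, edgeR adjusted p = 9.3e-08). PCDH7 was higher in resistant cells of both lines (2.14 ± 0.26 in A375 and 0.47 ± 0.15 in CHL1). Of the large cadherins FAT3 rose in A375 (1.83 ± 0.18, edgeR adjusted p = 0.00015) while CELSR1, CELSR2 and CELSR3 fell, and in CHL1 CELSR2 fell (-0.35 ± 0.06).

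Markers of other cell types moved with the groups as well. The 6 fibroblast markers summed to 42.0 to 52.1 CPM in resistant A375, against 19.3 to 24.2 CPM in parental A375, and to 11.4 to 14.1 CPM in resistant CHL1, against 17.0 to 22.9 CPM in parental CHL1. In A375, 3 of the 6 were called higher (COL1A2, COL3A1 and LUM) and PDGFRB was lower, and COL1A2 had 13.2 to 15.6 CPM in resistant A375 against 0.146 to 0.813 CPM in parental A375. The lower sum in resistant CHL1 came from LUM, which averaged 7.35 CPM in resistant and 14.7 CPM in parental CHL1. COL1A1 averaged 1.38 and 1.35 CPM there, and PDGFRB 3.8 and 3.2 CPM, so neither was lower in resistant CHL1. The 5 neuronal markers summed to 13.7 to 14.1 CPM in resistant A375, against 8.72 to 10.7 CPM in parental A375, and to 16.0 to 20.9 CPM in resistant CHL1, against 13.7 to 14.5 CPM in parental CHL1, with MAP2 the only one called in each line. The 8 melanocyte markers summed to 257 to 402 CPM in resistant A375, against 413 to 560 CPM in parental A375, and overlapped in CHL1. Most of that sum is SOX10, which was called in neither line, and the others did not move together. In A375 TYRP1 was higher (log2 fold change 3.02 ± 0.29) and MITF lower (-0.48 ± 0.15), and in CHL1 S100B was higher (0.68 ± 0.05) while DCT (-1.22 ± 0.07) and MITF (-0.38 ± 0.07) were lower. The 3 keratinocyte markers summed to 65.4 to 70.1 CPM in resistant A375, against 76.2 to 93.1 CPM in parental A375, and overlapped in CHL1. Most of it in A375 is KRT10, which was not called there, whereas KRT14 (-2.35 ± 0.16) and KRT5 (-5.91 ± 0.83) were lower in resistant A375. In resistant CHL1 KRT14 was higher (1.07 ± 0.24) and KRT10 lower (-0.35 ± 0.09). Leukocyte and endothelial markers were near or below 1 CPM in A375 throughout, while PTPRC stood at 8.83 to 10.04 CPM in all CHL1 libraries and CD3E was at 0 there. Their part in the protocadherin differences was not tested.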

How the data were processed

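Total RNA of 12 libraries was made into libraries with an Illumina TruSeq kit, per the labels' protocols. Among the tools in the submitters' processing notes are HTSeq 0.5 and TopHat2, with cutadapt 1.7, CASAVA 1.8.2 and limma. Build and annotation were not given in the sources used here. The authors deposited whole-number read counts per Ensembl gene in 1 table per line (33932 genes for A375, 32478 for CHL1). No table lists a gene with 0 counts throughout, so a gene missing from one was taken as 0 there. Symbols, order, exons and types came from GENCODE release 29.

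The members, gene lists and tests were chosen with earlier results of these data known. Each line was tested over its whole table with edgeR 4.0.16 in R 4.3.3 (TMM factors, filterByExpr with a minimum count of 10, quasi-likelihood F-test, two-sided, Benjamini-Hochberg adjustment, called at 0.05). The interaction and the comparisons of lines came from 1 fit to 4 groups. An SE was obtained by dividing the size of the log2 change by the root of its F statistic. Levels are CPM normalised over all 12 libraries, and levels per kilobase use exon bases that no other gene overlaps. The tests were tried on simulated data. DESeq2 1.42.0, other scalings and filters, a replicate block and leaving out each library were alternatives. Figures used Python 3.11.15 with matplotlib 3.10.9.

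How a counter treats shared exons bears on these genes. The constant exons cover 2866 bases of alpha and 2181 bases of gamma genes and are shared by at least 10 members, so a read there fits several genes. Whether such reads were dropped or split is not stated in the labels. Up to 45.1% of a member's 50-base words occur in another member, and unstranded counts can mix overlapping genes. The floor of 3 counts covers counting error only, whereas the SD and SE values include the spread between libraries. Genes were named by rule: per line and cluster the 3 most abundant and the 4 with the largest absolute fold change, the C-type genes, and the first and last of each cluster, plus up to 4 called members of each other list per comparison. Members outside that rule, such as PCDHA5, PCDHA10, PCDHGA8 and those named for a call or a lost call, were named after their values were seen.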

Additional observations from a re-analysis of the deposited data

Results flagged for a closer look

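By the interaction term of the 12-library fit, 16 of 47 members were called, beside 23.1% of all 19545 genes tested. The term is built from the resistance contrasts known when the family was picked, so the values are a description. They are given as the log2 fold change in A375 minus that in CHL1. In the beta cluster the difference was 0.70 for PCDHB3, 0.73 for PCDHB4, 0.79 for PCDHB5, 1.29 for PCDHB6, 0.64 for PCDHB8, 1.22 for PCDHB9, 1.29 for PCDHB10, 1.46 for PCDHB11, 2.33 for PCDHB12 and 1.16 for PCDHB14. In the alpha cluster it was 0.91 for PCDHA1, 0.66 for PCDHA3 and -1.003 for PCDHAC2. In the gamma cluster it was 1.20 for PCDHGB2, -2.04 for PCDHGA7 and -1.34 for PCDHGB4. The calls of PCDHA1, PCDHA3 and PCDHB4 were lost when single libraries were left out, PCDHA3 in 10 of 12 such fits.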

How the results depend on the processing

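Other size factors, other filters on low counts, DESeq2 and a fit to genes of both tables moved no count of called members by more than 1.5 times. Leaving out 1 library gave 24 to 28 members called higher and 1 to 2 lower in A375, and 11 to 13 higher and 0 to 1 lower in CHL1. It gave 10 to 14 higher and 3 to 4 lower for the interaction, 25 to 28 higher and 10 to 11 lower for parental lines, and 29 to 32 higher and 7 lower for resistant lines. The lower calls lost were PCDHAC2 in A375 and PCDHB9 in CHL1. Of the main calls, 24 of 28 higher in A375 and 11 of 13 higher in CHL1 held in every such fit. The replicate numbers may partly pair the A375 libraries. Deviations of resistant and parental A375 libraries of the same number correlated at 0.209, 0.214 and -0.011, against -0.254 to 0.059 for unlike numbers. In CHL1 the same-numbered values were 0.089, 0.016 and -0.001, against -0.061 to 0.045 for unlike numbers. Between lines the same-numbered values ran from -0.053 to 0.024. With the number as a block the counts were 28 and 2 in A375, 13 and 1 in CHL1, and 14 and 4 for the interaction. Between the lines, uncalled differences near 0 changed sign. For parental A375 over CHL1, PCDHB12 ran from -0.3019 to 0.295 and PCDHGC3 from -0.1638 to 0.0426 over the fits without 1 library. For resistant A375 over CHL1, PCDHB10 ran from -0.065 to 0.2089, PCDHGB4 from -0.2454 to 0.0728 and PCDHA11 from -0.0718 to 0.0675, with -0.0143 for PCDHA11 without a filter and -0.0025 with genes of both tables; the cause was not tested. Of 2333 recomputed single values 2298 counted as the same. That meant within a limit set from the SE for the resistance and interaction contrasts. For the comparisons of lines it meant an unchanged sign and call, and for cluster sums a change within the SD. A change of sign was counted for 17 values, all in the comparisons of lines, where it was counted whether or not the gene was called. In the resistance and interaction contrasts it was counted only for called genes, so changes of sign in uncalled genes there are not among the 17. At this depth genes under about 0.1 CPM cannot be told from 0.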
